A study of Danio rerio with 4 samples.

Results

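Neuregulin and ErbB receptor genes were followed in single cryoinjured zebrafish ventricles that had or lacked *cd74a* and *cd74b*, which encode the invariant chain that MHC class II molecules need for assembly and trafficking. The genes were chosen by name: the ligand gene *nrg1* and the receptor genes *erbb2*, *egfra*, *erbb3a*, *erbb3b*, *erbb4a* and *erbb4b*. Of these 7 genes, 6 were found by symbol among the 20984 genes with values, and *erbb4a* was not analysed here. Bulk RNA-seq was performed on 2 ventricles of *cd74a; cd74b* mutants, which carry the CRISPR-Cas9 deletion alleles *cd74a* bns454 and *cd74b* bns456, and on 2 ventricles of wild types. All 4 fish were of the AB background, 3 to 12 months of age and cryoinjured, each library came from its own ventricle, and no uninjured ventricle was part of the comparison. The study's text places the collection at 5 days after cryoinjury, whereas the design text of the series gives 7 days. Each genotype had 1 female and 1 male, and the labels do not say which library came from which sex, so that sex could not be used as a term. Wild types and mutants were raised from separate crosses, so genotype and family cannot be told apart.

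Neuregulins are growth factors with an EGF-like domain that bind the receptor tyrosine kinases ErbB3 and ErbB4. ErbB2 has no known ligand of its own and works as the preferred partner of the other receptors, while ErbB3 has little kinase activity and depends on a partner. Egfr binds EGF, HB-EGF and related ligands. In the zebrafish heart, Nrg1 is known as a cardiomyocyte mitogen during regeneration, with perivascular cells and regulatory T cells described as its sources, and *erbb3b* and *erbb2* are known for their part in Schwann cell development. The comparison asked which ligand and receptor transcripts differed between mutant and wild-type ventricles after injury.

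Values are normalized counts, that is, reads counted on the exons of a gene and divided by a size factor for the library, rounded to whole numbers. Their sums were 4198389 and 4382529 for the mutants and 4278663 and 4123819 for the wild types. Judged by the pattern that rounding left among low values, about 4477582 and 4062604 reads stood behind the mutants and 4490457 and 4016600 behind the wild types. Genes were compared with limma on the log2(normalized count + 1) scale, a scale that understates the change of genes with low values. A gene was called lower or higher in mutants when its Benjamini-Hochberg adjusted p-value over all tested genes was under 0.05 and its log2 fold change was at least 0.59 in size. Of the 16065 genes with a mean of at least 10 over the 4 ventricles, 1630 were called, 1196 lower and 434 higher in mutants. The targeted genes were both lower, with 408 and 401 normalized counts of *cd74a* in the mutants against 837 and 913 in the wild types, and 131 and 117 of *cd74b* in the mutants against 622 and 678 in the wild types. The ventricles of 1 genotype were closer to each other than to those of the other genotype. The SD of the log2 differences over genes was 0.602 between the mutants, 0.643 between the wild types and 0.920 to 1.15 between genotypes. Cardiomyocyte markers were present in all 4 ventricles. Their summed normalized counts were 13450 and 14865 in the mutants and 15606 and 15002 in the wild types. In limma 0 of 8 were called, with 2 at an unadjusted p-value under 0.05. All of these markers were among the genes with means of 635 or more, where calls were few, with 2.99% lower and 3.98% higher. The highest value of any gene was 4706 and 5122 in the mutants and 6096 and 6864 in the wild types. Whether the ventricles held similar amounts of cardiomyocytes was not tested. The titin gene *ttn.2* had 3659 and 4094 in the mutants and 5681 and 5793 in the wild types. It had an adjusted p-value of 0.0424 in limma and missed the call by the fold limit only (log2 fold change -0.568). *tnni1b* was higher, with 1560 and 1744 in the mutants and 1172 and 1181 in the wild types (limma adjusted p = 0.0630). Wild type 2 held the most transcript of the atrial myosin gene *myh6*, with 1250 and 154 normalized counts in the mutants and 1352 and 3908 in the wild types. Because these are bulk samples, fewer cells of a type and less RNA per cell cannot be told apart.

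The 6 genes did not move together. *erbb2* was the only member called, and it was lower in both mutants, while *nrg1* had higher and *egfra* lower values in both mutants than in both wild types without passing the threshold. The other receptor genes, *erbb3a*, *erbb3b* and *erbb4b*, did not pass 11 normalized counts in any ventricle. Thus 1 of 3 tested members was called, where 10.1% of all tested genes were called in either direction, 7.44% lower and 2.7% higher. Transcript lengths were not used, so values are compared between ventricles for 1 gene and not between genes.

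The ligand gene *nrg1* (ENSDARG00000104314, danRer11 chr10:7284121-7472359, minus strand) had 55 and 41 normalized counts in the mutants and 28 and 20 in the wild types. Both mutants lay above both wild types, and the gap between the higher wild type and the lower mutant was about as wide as the spread between the mutants. The means were 48 normalized counts in mutants and 24 in wild types, a log2 fold change of 0.97 (SE 0.39, 95% interval 0.05 to 1.90). The adjusted p-value of 0.154 in limma missed the threshold, and the unadjusted p-value was 0.0414. An unadjusted p-value under 0.05 in limma was reached by 4654 of the 16065 tested genes. Of all tested genes, 30.5% had both mutants above both wild types, so this separation by itself was common. Under the 17 alternative settings in which *nrg1* could be fitted, its log2 fold change ranged from 0.74 to 1.26, and it was not called. Some of these settings could not have called it, such as other fold limits, which kept the same adjusted p-value, and leaving out 1 ventricle.

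Transcripts of the cells described as sources of Nrg1 were read beside it. The mural marker *pdgfrb*, the PDGF receptor of perivascular cells, had 893 and 713 normalized counts in the mutants and 734 and 684 in the wild types and was not called (log2 fold change 0.17, limma adjusted p = 0.518). Other mural genes were not called either and differed in direction, with 93 and 74 normalized counts of the pericyte proteoglycan gene *cspg4* in the mutants against 313 and 112 in the wild types, and 800 and 934 of the smooth muscle actin gene *acta2* in the mutants against 659 and 721 in the wild types. The regulatory T cell factor gene *foxp3a* had 14 and 20 normalized counts in the mutants and 7 and 45 in the wild types. The lowest and the highest *foxp3a* values were thus both from wild types, and its genotype groups overlapped. The helper T cell marker *cd4-1* was the only 1 of 6 tested T cell markers called, lower in the mutants with 21 and 19 normalized counts against 171 and 162 in the wild types. The T cell signaling genes *lck* (16 and 15 normalized counts in the mutants, 5 and 28 in the wild types) and *zap70* (31 and 29 in the mutants, 11 and 50 in the wild types) and the costimulatory receptor gene *cd28* (11 and 9 in the mutants, 2 and 27 in the wild types) had overlapping groups. The remaining tested marker, *il2rb*, had 21 and 11 in the mutants and 28 and 46 in the wild types. Its groups did not overlap, but it was not called (log2 fold change -1.18, limma adjusted p = 0.176). Of the untested markers, *tnfrsf9b* was lower in both mutants (8 and 1 against 13 and 9), and the groups of *cd8a* overlapped. The median log2 fold change of the 6 tested markers was 0.07. The part of these cell types in the *nrg1* values was not tested.

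*erbb2* (ENSDARG00000026294, danRer11 chr12:9360316-9438227, minus strand), the receptor that pairs with the other family members, had 11 and 4 normalized counts in the mutants and 141 and 169 in the wild types. The 2 mutants were close to the lowest values that the libraries can resolve, both wild types were well above them, and the groups did not overlap, as was the case with both mutants lower in 29.4% of all tested genes. Mean values were 7.5 normalized counts in mutants and 155 in wild types. The log2 fold change was -4.33 (SE 0.49, 95% interval -5.48 to -3.17), with an adjusted p-value of 0.00752 in limma. Taken as counts, the sums of 15 in the mutants and 310 in the wild types gave a ratio of wild type over mutant of 20.7, with an interval of 12.3 to 37.4 that covers counting error only. Ranked by log2 fold change from the most negative value, *erbb2* stood at place 43 of 16065 genes, and by p-value at place 81.

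The *erbb2* call rested on having 2 ventricles of each genotype. In the fits without mutant 1, mutant 2, wild type 1 or wild type 2, its log2 fold change was -4.96, -3.69, -4.46 and -4.20, and its adjusted p-values in limma were 0.124, 0.265, 0.215 and 0.214, but with 3 ventricles 0 genes of any kind were called. Without a filter on low values its adjusted p-value was 0.0550, and under the other 13 of 18 alternatives it was called.

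The size of the *erbb2* difference was read against genes of similar level and span. *erbb2* had a mean of 81.25 normalized counts over the 4 ventricles. Among the 1606 genes of the same level group (of 10 equal groups), with means from 68.5 to 105.5, 11.6% were called lower and 2.86% higher. This mean includes the low mutant values, so the level group is not independent of the difference. The wild-type mean of 155 falls in the range of another group, with means from 152.75 to 211.75. There 6.72% were called lower and 2.49% higher. The gene span of *erbb2*, the distance from start to end on the chromosome, was 77.9 kb. In the group of genes with spans of 48.0 to 83.4 kb, 13.5% were called lower, and over all 10 span groups this share ran from 2.86% to 15.1%, highest for the longest genes. After a trend with gene span had been removed from each ventricle, *erbb2* was still called (log2 fold change -4.22). The median log2 fold changes of the span groups ran only from -0.14 to 0.09, so this step could change little. The part of span in the *erbb2* difference was not tested.

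*egfra* (ENSDARG00000013847, danRer11 chr2:3696038-3820159, plus strand), the EGF receptor gene, had 403 and 297 normalized counts in the mutants and 459 and 560 in the wild types. Both mutants lay below both wild types, as in 29.4% of all tested genes, but the higher mutant was closer to the lower wild type than to the other mutant. The means of 350 normalized counts in mutants and 509.5 in wild types gave a log2 fold change of -0.55 (SE 0.20, 95% interval -1.02 to -0.08). With an adjusted p-value of 0.121 in limma and an unadjusted p-value of 0.0272, *egfra* was not called. Unadjusted p-values under 0.05 were common, with 4654 of 16065 tested genes in limma. It was also not called under any of its 18 alternatives, where the log2 fold change ranged from -0.77 to -0.33. As with *nrg1*, some of these settings could not have called it.

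**Figure D1:**
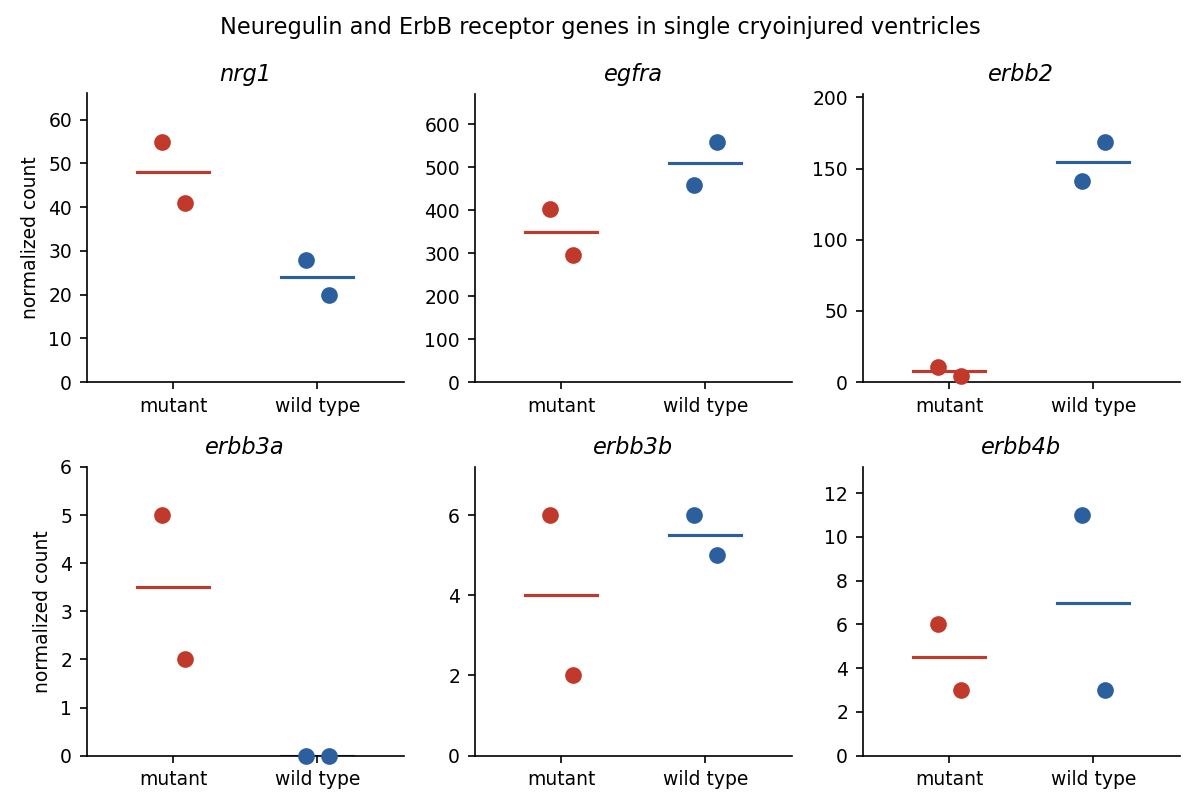
Normalized counts (y axis, a separate scale for each gene, starting at 0) of the 6 members in each ventricle (points), with mutants left of wild types and a line at each group mean. *erbb2* had 11 and 4 normalized counts in mutants against 141 and 169 in wild types, *nrg1* and *egfra* differed by less, and *erbb3a*, *erbb3b* and *erbb4b* did not pass 11 in any ventricle.

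Of the receptors through which neuregulins bind directly, the 3 with values had few reads, and *erbb4a* was not analysed here. *erbb3a* (ENSDARG00000006202, danRer11 chr6:7466223-7531427, plus strand) had 5 and 2 normalized counts in the mutants and was listed at 0 in both wild types, so no fold change is given. Its copy *erbb3b* (ENSDARG00000036993, danRer11 chr23:25232411-25287666, plus strand) had 6 and 2 normalized counts in the mutants and 6 and 5 in the wild types. *erbb4b* (ENSDARG00000089536, danRer11 chr9:39313944-39624173, minus strand), a neuregulin receptor with its own kinase activity, had 6 and 3 normalized counts in the mutants and 11 and 3 in the wild types. For *erbb3b* and *erbb4b* the genotype groups overlapped, and for *erbb3a* the higher values were those of the mutants. These 3 genes were under the minimum mean of 10 and were not tested, and a difference of moderate size would not be detectable at this depth. Fitted without the filter, the limma adjusted p-values were 0.151 for *erbb3a*, 0.664 for *erbb3b* and 0.777 for *erbb4b*. Markers of nerve glia, cells in which *erbb3b* is known to act, did not move together. The glial factor gene *sox10* had 9 and 11 normalized counts in the mutants and 10 and 17 in the wild types. The myelin genes *mbpa* (18 and 1 normalized counts in the mutants, 13 and 94 in the wild types) and *mpz* (31 and 13 in the mutants, 22 and 103 in the wild types) were highest in wild type 2. *plp1b*, another myelin gene and the only 1 of 4 tested markers of this list called, was higher in the mutants, with 89 and 70 normalized counts against 19 and 18 in the wild types (log2 fold change 2.04, limma adjusted p = 0.0179). The part of these cells in the receptor values was not tested.

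**Figure D2:**
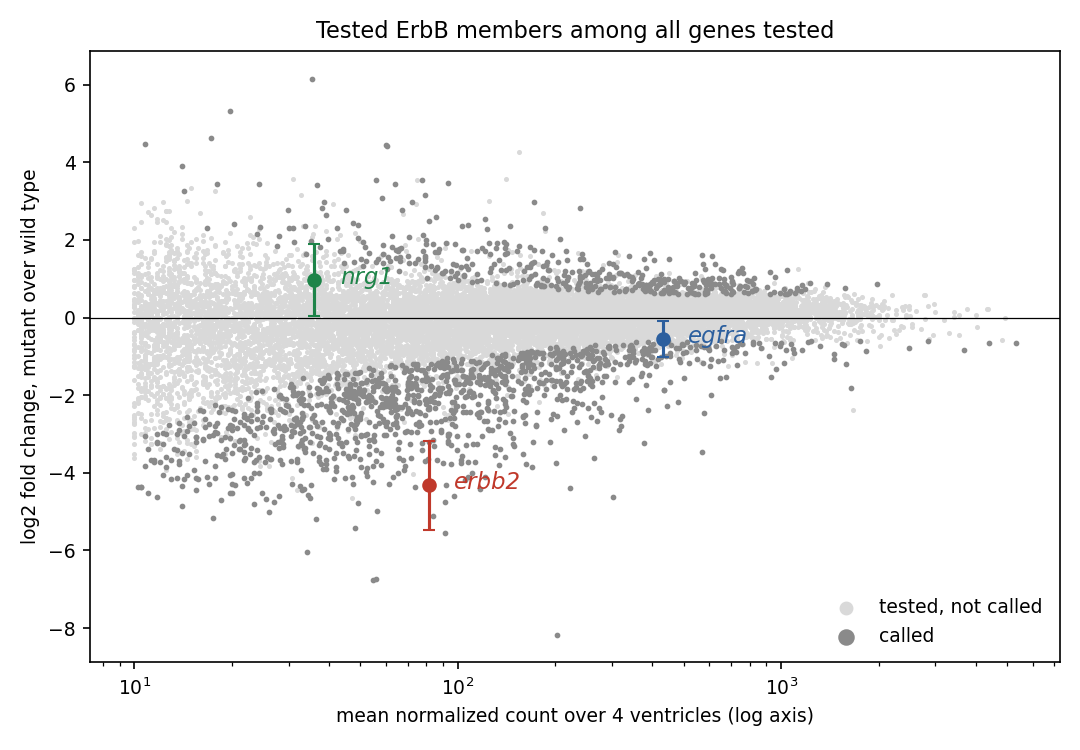
Log2 fold change of mutant over wild type (y axis) against the mean normalized count over the 4 ventricles (x axis, log scale) for all 16065 tested genes, with called genes in dark gray and the 3 tested members in color with 95% intervals. *erbb2* at -4.33 lies among the lowest genes, while *nrg1* at 0.97 and *egfra* at -0.55 lie among genes that were not called.

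Several genes resembled the members across the 4 ventricles. Likeness was measured as the Euclidean distance between log2 values after each gene's mean had been subtracted, a description over only 4 ventricles. Closest to *erbb2* were *lgi2a*, with 1 and 0 normalized counts in the mutants and 25 and 30 in the wild types (distance 0.186), and *apbb1*, with 12 and 5 in the mutants and 173 and 177 in the wild types (distance 0.192). Only 12 genes lay within a distance of 0.5 of *erbb2*. For *nrg1*, with 400 genes within that distance, the closest were *rasl12* (188 and 148 normalized counts in mutants, 103 and 71 in wild types, distance 0.0711) and *prg4b* (59 and 44 in mutants, 28 and 20 in wild types, distance 0.0995). For *egfra*, 1823 genes lay within the distance, led by *cep170b* (106 and 78 normalized counts in mutants, 122 and 150 in wild types, distance 0.0191) and *tefb* (261 and 195 in mutants, 295 and 355 in wild types, distance 0.0374).

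Next, the genes that act around and downstream of the receptors were examined. A list of 89 genes in 6 roles had 83 genes with values and 79 tested, of which 13 were called lower (16.5%), 4 higher (5.06%) and 62 not called, with a median log2 fold change of 0.05. The same figures over all tested genes were 7.44%, 2.7% and 0.03. The list was chosen with earlier results of these data known, so these shares are not independent evidence of a direction. Each role had called genes, and in each of them the larger part did not pass the test.

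Among the other EGF-family ligands, 1 of 6 tested genes was called. *nrg2b*, a second neuregulin gene, had 2 and 0 normalized counts in the mutants and 24 and 37 in the wild types. The mutants were near 0 and the groups did not overlap (log2 fold change -4.15, SE 0.85, limma adjusted p = 0.0273). With a pseudocount of 0.1 its log2 fold change was -6.03 and the call was lost (limma adjusted p = 0.0691), and with a pseudocount of 5 the log2 fold change was -2.56. It was called under 10 of 16 alternatives. The sums of 2 in the mutants and 61 in the wild types gave a ratio of wild type over mutant of 30.5 with a counting interval of 8.09 to 258. Its copy *nrg2a* had 157 and 131 normalized counts in the mutants and 166 and 194 in the wild types and was not called (log2 fold change -0.32, adjusted p = 0.351 in limma). The HB-EGF genes, whose products bind Egfr and ErbB4, were not called either. *hbegfb* had 184 and 114 normalized counts in the mutants against 90 and 79 in the wild types (log2 fold change 0.77, limma adjusted p = 0.127), and *hbegfa* had 404 and 499 in the mutants against 401 and 309 in the wild types. For *btc*, the betacellulin gene, values were 49 and 50 in the mutants and 35 and 67 in the wild types, and the sign of its log2 fold change of 0.03 turned under other scalings. The ligand genes *areg*, *egf* and *tgfa* were under the minimum mean and were not tested. *areg* had 13 and 9 normalized counts in the mutants and 4 and 4 in the wild types. *egf* had 2 and 0 in the mutants and 5 and 11 in the wild types, and *tgfa* 2 and 0 against 0 and 10.

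Ligands of this family are released from the membrane by proteases. *adam17b*, 1 of 2 copies of the gene for the main shedding enzyme of several EGF-family ligands, had 41 and 25 normalized counts in the mutants and 331 and 284 in the wild types (log2 fold change -3.22, SE 0.30, limma adjusted p = 0.00653). Both mutants were far below both wild types, whereas *adam17a*, with 652 and 635 normalized counts in the mutants and 867 and 702 in the wild types, was not called. *adam10b*, which encodes another shedding protease, was called higher, with 348 and 435 normalized counts in the mutants and 226 and 165 in the wild types (log2 fold change 1.01, SE 0.22, limma adjusted p = 0.0312).

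Adaptors carry the signal from the phosphorylated receptor, and here 4 of 20 tested genes were called lower and 1 higher. *gab2*, a docking adaptor for PI3K and Shp2, had 3 and 2 normalized counts in the mutants and 73 and 63 in the wild types (log2 fold change -4.31, SE 0.53, limma adjusted p = 0.00980). The mutants were again near the lowest resolvable values, with a ratio of the sums, wild type over mutant, of 27.2 and a counting interval of 11.4 to 85.1. *ptpn11b*, a copy of the gene for the phosphatase Shp2, had 113 and 44 normalized counts in the mutants against 255 and 263 in the wild types (log2 fold change -1.86). *cbl*, which encodes a ubiquitin ligase that directs active receptors to degradation, had 104 and 60 in the mutants against 344 and 240 in the wild types (-1.85). *plcg2*, a phospholipase C gamma gene known in mammals for its role in blood cells, had 104 and 74 in the mutants against 362 and 252 in the wild types (-1.77). In these 3 genes the groups did not overlap, and their limma adjusted p-values were 0.0327, 0.0171 and 0.0132. The Ras exchange factor gene *sos1* was called higher, with 700 and 744 normalized counts in the mutants against 413 and 328 in the wild types (log2 fold change 0.97, SE 0.17, limma adjusted p = 0.0177). The other adaptor genes were not called, among them *gab1* with 542 and 608 normalized counts in the mutants and 601 and 448 in the wild types.

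In the Ras-MAPK branch, 3 of 16 tested genes were called lower and 1 higher. *kras*, a Ras gene, had 62 and 52 normalized counts in the mutants and 163 and 131 in the wild types (log2 fold change -1.35, limma adjusted p = 0.0232). *elk1*, which encodes a transcription factor that Erk phosphorylates, had 25 and 13 in the mutants and 81 and 89 in the wild types (-2.17, limma adjusted p = 0.0224). Both mutants were below both wild types in *kras* and in *elk1*. The Ras gene *nras* had 319 and 368 normalized counts in the mutants and 371 and 296 in the wild types, with overlapping groups. *mycb*, a Myc gene, was called higher, with 511 and 568 normalized counts in the mutants and 327 and 333 in the wild types (log2 fold change 0.71, SE 0.15, limma adjusted p = 0.0310).

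The PI3K-Akt-mTOR branch had 3 of 21 tested genes called lower and 1 higher. *pik3ca*, the gene for the catalytic subunit p110 alpha, had 32 and 13 normalized counts in the mutants and 249 and 265 in the wild types (log2 fold change -3.58, SE 0.41, limma adjusted p = 0.00791). *pik3cb*, which encodes p110 beta, showed no such separation, with 541 and 536 in the mutants and 611 and 477 in the wild types. *pik3cd*, for the subunit p110 delta known mainly from leukocytes in mammals, had 39 and 17 in the mutants and 110 and 138 in the wild types (-2.21, limma adjusted p = 0.0234). *gsk3bb*, a copy of the gene for the Akt target Gsk3b, had 24 and 19 in the mutants and 83 and 52 in the wild types (-1.58, limma adjusted p = 0.0475). This call was close to the threshold and was lost under 10 of 17 alternatives, among them a pseudocount of 0.1 (limma adjusted p = 0.0513), voom weights (0.0536) and cyclic loess (0.0682). *pdpk1b*, the gene for a kinase that activates Akt, was called higher at the edge of both thresholds, with 643 and 690 normalized counts in the mutants and 454 and 419 in the wild types (log2 fold change 0.61, limma adjusted p = 0.0421). It was no longer called under 12 of 18 alternatives. The Akt genes were not called and differed in direction. *akt1* had 13 and 14 normalized counts in the mutants and 46 and 41 in the wild types (limma adjusted p = 0.0516). *akt2* was higher in both mutants, with 926 and 1014 against 696 and 624 in the wild types (log2 fold change 0.56, limma adjusted p = 0.0522). *akt3a* and *akt3b* had lower values in both mutants than in both wild types.

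Among inhibitors that dampen the pathway, 1 of 11 tested genes was called. *spred2b*, which encodes a brake on Ras-Raf signaling, had 67 and 55 normalized counts in the mutants and 212 and 191 in the wild types (log2 fold change -1.71, SE 0.23, limma adjusted p = 0.0113). *dusp6*, an Erk phosphatase gene whose transcript is commonly read as an output of Erk signaling, had 1140 and 1506 normalized counts in the mutants and 1009 and 1357 in the wild types, with overlapping groups and a log2 fold change of 0.16. The median log2 fold change of the 11 genes was 0.30. In 6 of the 11 both mutants lay above both wild types, a separation that 30.5% of all tested genes had. In 1 of the 11 both mutants lay below. None of the 6 was called, among them *spry2* (log2 fold change 0.48) and *spry1* (1.07). Erk signaling itself was not tested. The receptor inhibitor gene *lrig1*, with 552 and 554 normalized counts in the mutants and 562 and 508 in the wild types, was not called.

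**Figure D3:**
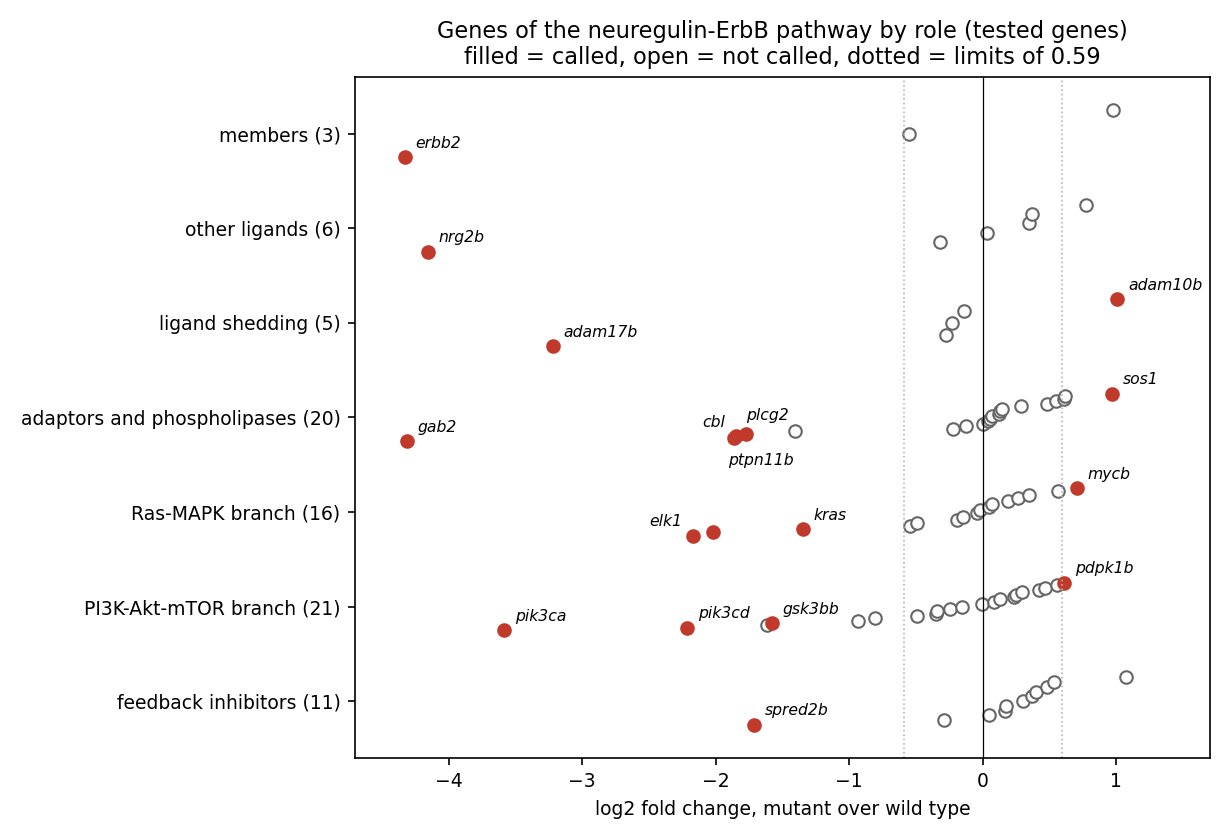
Log2 fold change of mutant over wild type (x axis) for the 3 tested members and the 79 tested pathway genes, 1 line of points per role with the number tested in brackets and points spread vertically only for legibility. Filled points are called genes, with 4 of the pathway genes to the right of 0 and 13 to the left. The other 62 points are open and run from -1.62 for *akt1* to 1.07 for *spry1*.

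Cell type markers were read beside these genes. For 6 of 6 macrophage markers both mutants lay below both wild types, a separation that 29.4% of all tested genes had. Their summed normalized counts were 2473 and 2481 in the mutants and 3592 and 3439 in the wild types. Of these markers, *mpeg1.1* and *mfap4* were called lower. Both tested neutrophil markers, *mpx* and *npsn*, were called lower as well, where 7.44% of all tested genes were called lower. The untested neutrophil marker *lyz* had overlapping groups, with 7 and 2 normalized counts in the mutants and 6 and 14 in the wild types. Summed endothelial and endocardial markers were 9883 and 10101 in the mutants and 9615 and 9650 in the wild types, and 1 of 10 was called, namely the adhesion molecule gene *pecam1*, which was higher in the mutants with 542 and 529 normalized counts against 285 and 259 in the wild types (log2 fold change 0.98, limma adjusted p = 0.0143). Epicardial markers summed to 5420 and 5765 in the mutants and 5596 and 6293 in the wild types, with 0 of 6 called by limma and 1 at an unadjusted p-value under 0.05. The part of leukocytes in *plcg2*, *pik3cd*, *erbb2* or any other called gene was not tested.

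Many pathway genes exist as a and b copies in zebrafish, a grouping that was made after the values had been seen. In 19 pairs both copies were tested. In 11 pairs neither copy was called, in 8 pairs 1 copy was called, and in 0 pairs both. Over all tested genes, 10.1% were called in either direction, 7.44% lower and 2.7% higher, which are shares of genes and not of pairs. The called copies were *nrg2b*, *adam17b*, *ptpn11b*, *gsk3bb* and *spred2b*, all lower, and *adam10b*, *mycb* and *pdpk1b*, all higher. Each copy called lower had a lower mean than its partner, such as 15.75 against 162 for *nrg2b* and 170.25 against 714 for *adam17b*. Of the copies called higher, *adam10b* had the lower mean of its pair, *mycb* and *pdpk1b* the higher. By level group, the share called lower was 14.5% at means of 40.25 to 68.5 and 2.43% at 411 to 634.75. These means and level groups include the mutant values, so they are not independent of the calls. The part of level in these calls was not tested. *ptpn11a* had 660 and 686 normalized counts in the mutants and 619 and 662 in the wild types, *gsk3ba* had 722 and 824 in the mutants and 721 and 598 in the wild types, and *spred2a* had 452 and 568 in the mutants and 337 and 363 in the wild types. For *spred2*, the called b copy was thus lower and the a copy had higher values in both mutants (log2 fold change 0.53, not called). Whether the copies of a pair differed in their response was not tested.

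**Figure D4:**
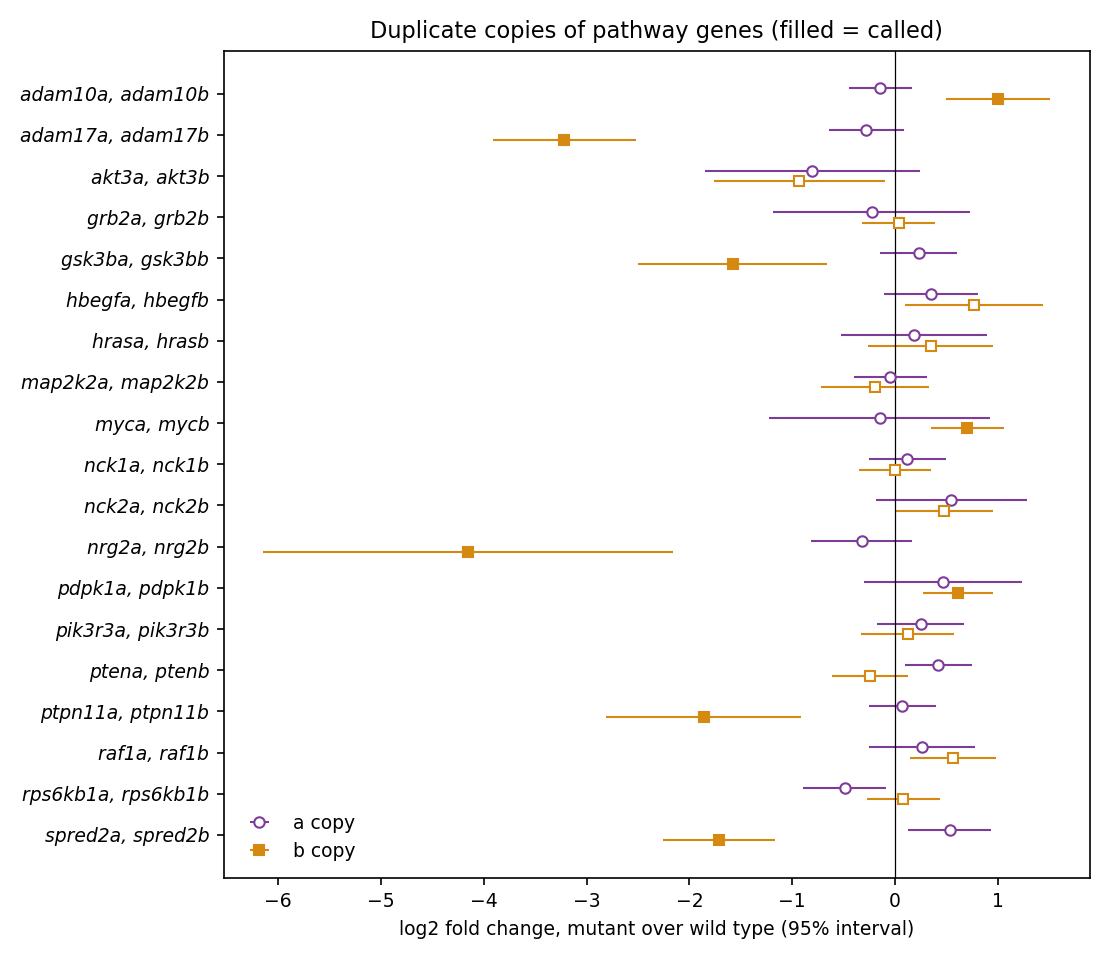
Log2 fold change of mutant over wild type with 95% intervals (x axis) for the 19 pairs of copies, the a copy as circles above the b copy as squares, filled where called. In 8 pairs the b copy alone is filled, 5 to the left of 0 and 3 to the right, and in the other 11 pairs both symbols are open.

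The deposited table annotates 101 genes to the KEGG ErbB signaling pathway. Of the 94 tested, 18 were called lower (19.1%), 3 higher (3.19%) and 73 not, with a median log2 fold change of -0.04. Over all tested genes, 7.44% were called lower and 2.7% higher. The study chose this pathway on these same libraries, so the count is not independent evidence of a direction, and it shares many genes with the list of roles. The 5 lower genes with the most negative values were *erbb2*, *map2k7*, *nrg2b*, *pik3ca* and *stat5a*. *map2k7*, which encodes an activator of the stress kinase Jnk, had 1 and 1 normalized counts in the mutants and 30 and 50 in the wild types (log2 fold change -4.31, SE 0.69, limma adjusted p = 0.0149). Its sums were 2 in the mutants and 80 in the wild types, a ratio of wild type over mutant of 40 with a counting interval of 10.7 to 336. *stat5a*, a transcription factor gene downstream of ErbB4 and cytokine receptors, had 7 and 3 in the mutants and 54 and 71 in the wild types (-3.48, SE 0.55, limma adjusted p = 0.0145). The 3 higher genes were *sos1*, *mycb* and *camk2d2*, a calcium/calmodulin kinase gene with 690 and 812 normalized counts in the mutants and 431 and 405 in the wild types (0.84, SE 0.15, limma adjusted p = 0.0209).

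Because Nrg1 is known as a mitogen, cell cycle genes were compared too. Of 22 tested genes, 0 were called by limma, with or without voom precision weights. In limma 9 had an unadjusted p-value under 0.05, as did 4654 of all 16065 tested genes. All 22 had negative log2 fold changes, with a median of -0.55 and a range from -1.16 to -0.35, and in 15 of them both mutants lay below both wild types, a separation that 29.4% of all tested genes had. Wild type 1 had the highest value of the 4 ventricles in 21 of 22 genes, and the summed normalized counts were 6065 and 5131 in the mutants and 11835 and 6599 in the wild types. Without wild type 1 the median log2 fold change was -0.185, and without wild type 2 it was -1.06. *mki67*, the gene of the proliferation marker Ki-67, had 482 and 429 normalized counts in the mutants and 1504 and 684 in the wild types (log2 fold change -1.16, limma adjusted p = 0.0662). *erbb2* also had both mutants below both wild types, but its highest value was in wild type 2, with 141 and 169 normalized counts in the wild types. A link between *erbb2* and the cell cycle genes was not tested.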

How the data were processed

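Libraries of 4 single ventricles were sequenced. The study's methods give Trimmomatic 0.39 for trimming, STAR 2.7.9a for alignment to danRer11 with Ensembl release 104 genes, and featureCounts 2.0.2 for reads on exons, without reads shared by several genes or places, with normalization in DESeq2 1.30.0. Strand use and duplicate removal are not given in the sources used here. What the authors deposited is a score per gene and ventricle (a count scaled by a size factor and rounded), so no count model was run. The table also annotates genes with KEGG pathways.

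Groups came from the sample titles. limma 3.58.1 in R 4.3.3 (mean-variance trend, no covariate) was fitted to log2(value + 1) for genes averaging 10 or more, with Benjamini-Hochberg adjustment and thresholds of 0.05 and 0.59, and was tested on simulated data. An exact permutation test of 2 against 2 ventricles cannot go below p = 0.33. The members and gene lists were chosen with earlier results of these data known. Genes named are all members, every called gene of the role lists except 1 that is not reported here, the 5 most changed called genes per direction of the KEGG pathway, the 2 genes most like each tested member, the targeted genes, and markers beside results they touch. Other genes and copies named were chosen after their values were seen. Alternatives were other pseudocounts, filters, scalings, weights, fold limits, no trend, a replicate block and leaving out each ventricle. Removal of a gene span trend was added after seeing the data. The symbol *hbba1* stands on 2 rows. No sequence is printed.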

Additional observations from a re-analysis of the deposited data

How the results depend on the processing

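Over all genes, the 1630 calls became 0 without a filter on low values (smallest adjusted p in limma 0.0518, with 5015 genes at an unadjusted p under 0.05), 543 without the mean-variance trend (461 lower, 82 higher) and 955 with a replicate block (740 lower, 215 higher). Pathway genes called by role numbered 17, but 0 without the filter and 6 without the trend, and those of the KEGG pathway 21, but 0 without the filter and 8 without the trend. The 1 member called, *erbb2*, was also lost without the filter. When 1 ventricle was left out, these 4 counts ranged from 0 to 0, and the counts fell to 0 with mutant 1, mutant 2, wild type 1 or wild type 2 left out alike. Whether replicate numbers pair the ventricles is not known. The correlation of same-numbered deviations over genes was -0.0659, a value that cannot exclude a pairing that touches few genes. With the replicate block 1 member, 12 role genes and 16 KEGG genes were called, without *adam10b*, *gsk3bb*, *mycb*, *nrg2b* and *pdpk1b* (adjusted p in limma 0.056 to 0.072). Cell cycle calls, 0 at first, were 1 with rescaling to the same total or upper quartile, 2 with cyclic loess and 1 with the replicate block. The log2 fold change of *btc* turned to -0.00034 with the total and -0.030 with the upper quartile, and ran from -0.43 without wild type 1 to 0.49 without wild type 2. Of 23 called genes that were followed, 0 changed sign under any alternative. Normalized counts under about 10 left *erbb3a*, *erbb3b* and *erbb4b* unresolved.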

Other observations

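The genes near the members were listed to see whether the *erbb2* difference was shared by its surroundings. No listed gene overlapped a member. Within 300 kb of *erbb2*, 2 of 12 tested genes were called lower in mutants and 0 higher, where 7.44% of all tested genes were called lower. *pgap3*, which takes part in remodeling of GPI anchors and lies 11.4 kb away, had 7 and 8 normalized counts in the mutants and 77 and 33 in the wild types (log2 fold change -2.60, limma adjusted p = 0.0299). *ppp1r9bb*, a spinophilin gene 265 kb away, had 10 and 2 in the mutants and 39 and 63 in the wild types (-3.14, limma adjusted p = 0.0373). The other 10 genes were not called.

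Within 300 kb of *nrg1*, 3 of 16 tested genes were called lower and 0 higher. The shares over all tested genes were 7.44% lower and 2.7% higher. *nrg1* itself had higher values in both mutants and was not called, and a shared local effect was not tested. *wrn*, the gene of a RecQ helicase 11.2 kb away, had 36 and 20 normalized counts in the mutants and 105 and 77 in the wild types (log2 fold change -1.71, limma adjusted p = 0.0374). *pcyox1*, a prenylcysteine oxidase gene 181 kb away, had 32 and 33 in the mutants and 201 and 159 in the wild types (-2.42, limma adjusted p = 0.00743). *BX537303.1*, 101 kb away, had 3 and 0 in the mutants and 28 and 21 in the wild types (-3.66, limma adjusted p = 0.0469). Near *egfra*, 1 of 15 tested genes was called lower, near *erbb3a* 1 of 11 lower and 1 higher, and near *erbb3b* 1 of 13 lower.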
